A study of Mus musculus with 16 samples.

Results

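The difference between thalamus and cortex was measured within single mice, and the comparison asked whether the size of that difference depended on the Pdgfb genotype. All 16 RNA-seq libraries of the series entered it, a cortex and a thalamus library from each of 8 animals, of which 4 were Pdgfb ret/ret and 4 were Pdgfb ret/wt. They were chosen by their labels for genotype, region and animal, and no expression value was used. All animals were C57BL/6 mice aged 4 months. The ret/ret animals carried the ret allele on both copies of Pdgfb and the ret/wt controls on 1 copy, so no group was free of the allele. Calcifications were located in ret/ret brains by their autofluorescence and cut out, and these pieces are the ret/ret thalamus samples. The ret/wt thalamus samples were tissue from the matching region, and cortex, which is not prone to calcify, was taken from both genotypes. In thalamus, the genotype and the selection of calcified pieces cannot be told apart.

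PDGF-B is a growth factor that endothelial cells release and that pericytes, the mural cells of capillaries, need for recruitment through the receptor PDGFRB. The ret allele removes the retention motif that holds the factor near the vessel, and ret/ret mice have too few brain pericytes and form vessel-associated calcifications in deep brain regions. Microglia are the resident macrophages of the brain. TREM2 is a lipid-sensing microglial receptor that signals through the adaptor TYROBP and is needed for the disease-associated state, in which genes such as Lpl and Cst7 are switched on.

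The interaction is given throughout as a log2 difference of differences, thalamus minus cortex in ret/ret animals less thalamus minus cortex in ret/wt animals. A positive value means that a gene stood higher in thalamus, relative to the cortex of the same animal, in ret/ret than in ret/wt animals. Levels are in CPM, counts scaled to a common library size, here after TMM scaling, which do not correct for gene length, so levels of different genes are not compared.

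The libraries held between 13415391 and 29135064 estimated counts, and 3 counts, used as the limit of detection, corresponded to 0.110 to 0.235 CPM. The region labels matched their markers. Tbr1, a transcription factor of cortical projection neurons, stood at 39.3 to 135 CPM in the 8 cortex libraries and at no more than 4.38 CPM in the 8 thalamus libraries. Tcf7l2, a transcription factor of thalamic neurons, stood at 2.41 to 7.37 CPM in cortex and at 18.3 to 219 CPM in thalamus. Some dissections stood apart. The summed level of 12 cerebellum genes was 2661 CPM in the cortex library of ret/wt animal 3 and 5844 CPM in that of ret/ret animal 2, against 180 to 269 CPM in the other 6 cortex libraries. These same animals were the only ones with Y-linked Ddx3y above 1 CPM (55.2 to 68.7 CPM in their 4 libraries). The choroid plexus gene Ttr stood at 1038 CPM in the cortex of ret/wt animal 4 and at 3.45 to 55.6 CPM in the other cortex libraries. The thalamus library of ret/ret animal 4 had the lowest Tcf7l2 (18.3 CPM) and the highest Slc6a3, the dopamine transporter gene (234 CPM).

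The regional program was largely common to both genotypes. Over the 15286 genes tested, the mean thalamus minus cortex difference of ret/wt animals and that of ret/ret animals had a Pearson correlation of 0.838 across genes, which are not independent replicates. Of 682 genes with a regional difference of at least 2 log2 units in ret/wt animals, 664 (97.4%) differed in the same direction in ret/ret animals, and 424 (62.2%) by at least 2 log2 units again.

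**Figure D1:**
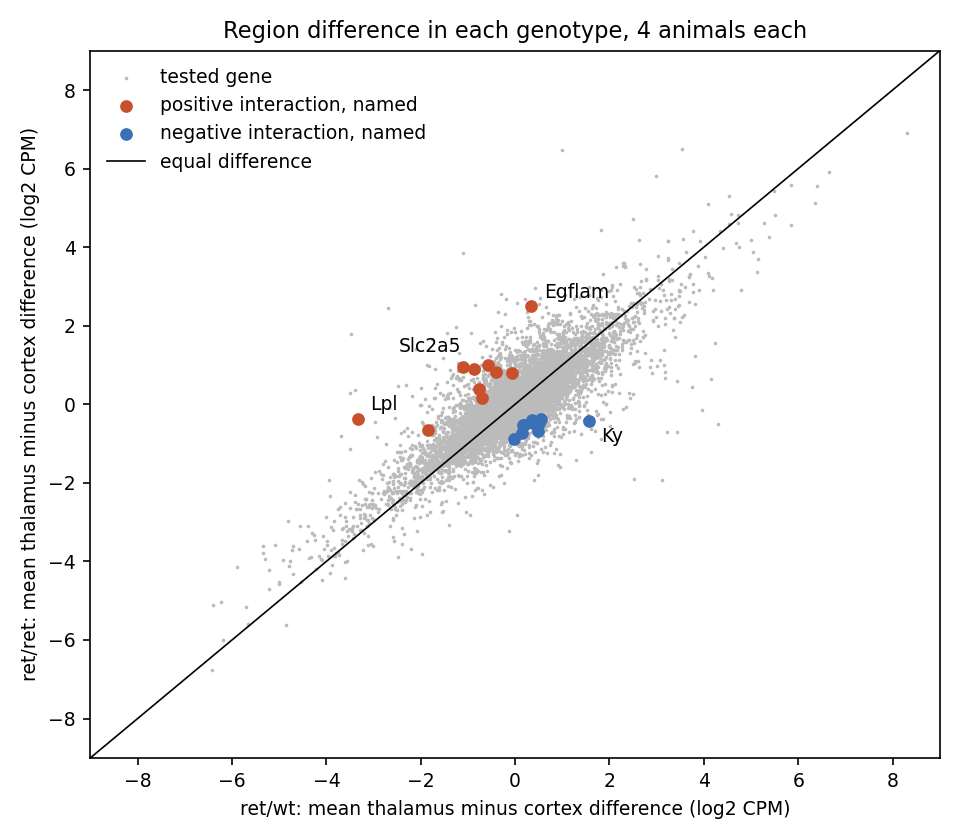
Each point is 1 of the 15286 genes tested, with the mean thalamus minus cortex difference of the 4 ret/wt animals on the x axis and of the 4 ret/ret animals on the y axis, both in log2 CPM, and with named genes labelled. Most genes lie along the diagonal of equal difference (r = 0.838), and Lpl lies well above it.

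No gene passed the test of the interaction. With edgeR's quasi-likelihood test and Benjamini-Hochberg adjustment, 0 of 15286 genes (0%) had an adjusted p under 0.05, and no adjusted p was smaller than 1. Without adjustment, 243 genes (1.59%) were under 0.05. Of these, 146 genes (0.955%) had a positive and 97 (0.635%) a negative interaction. With DESeq2 2 genes passed at the same adjusted threshold, Lpl and Cst7, the latter kept by the filter on low counts only through ret/ret thalamus, where it is high, and the 3 limma fits called 0 genes. The median interaction over all genes was -0.02. For the 12816 genes with a mean log2 CPM of at least 1, the median standard error was 0.344 and the median half-width of the 95% interval was 0.769 log2 units. That half-width is for a single gene without adjustment. With 4 animals a genotype, the interaction of a typical gene had to be larger than that to pass the adjusted test over 15286 genes. Even Lpl, with an interaction of 2.98, did not pass it with edgeR.

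The animal differences of the 2 genotypes did not overlap for 267 genes (1.75%), of which 131 (0.857%) were higher and 136 (0.89%) lower in ret/ret. The unadjusted count depended on single animals. It was 477 genes without ret/wt animal 4 and 442 without ret/ret animal 2, and the adjusted count was 0 in both. Without ret/wt animal 3 and ret/ret animal 2, whose cortex libraries held the cerebellum genes, 389 genes had an unadjusted p under 0.05 and 0 an adjusted one. Only these animals had Y-linked Ddx3y above 1 CPM, so these features cannot be told apart. With a region by Y-linked reads term, the unadjusted count was 419 and the adjusted count 0.

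The genes described next were ranked by their interaction p among the 212 genes that averaged 1 or more on the log2 CPM scale and whose genotypes did not overlap. Since these values chose them, they are a description, and none had an adjusted p under 0.05 in the edgeR quasi-likelihood test. Of the 10 positive genes, all 10 stood higher in ret/ret than in ret/wt thalamus and 9 lower in ret/ret than in ret/wt cortex, by the fitted genotype difference in each region. Of the 10 negative genes, all 10 stood lower in ret/ret thalamus and all 10 higher in ret/ret cortex. The fitted genotype differences therefore had opposite signs in the 2 regions for every one of these genes except Slc16a3, though 1 of them could be small, as for Egflam in thalamus (0.08 log2 units) and Ky in thalamus (-0.17).

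**Figure D2:**
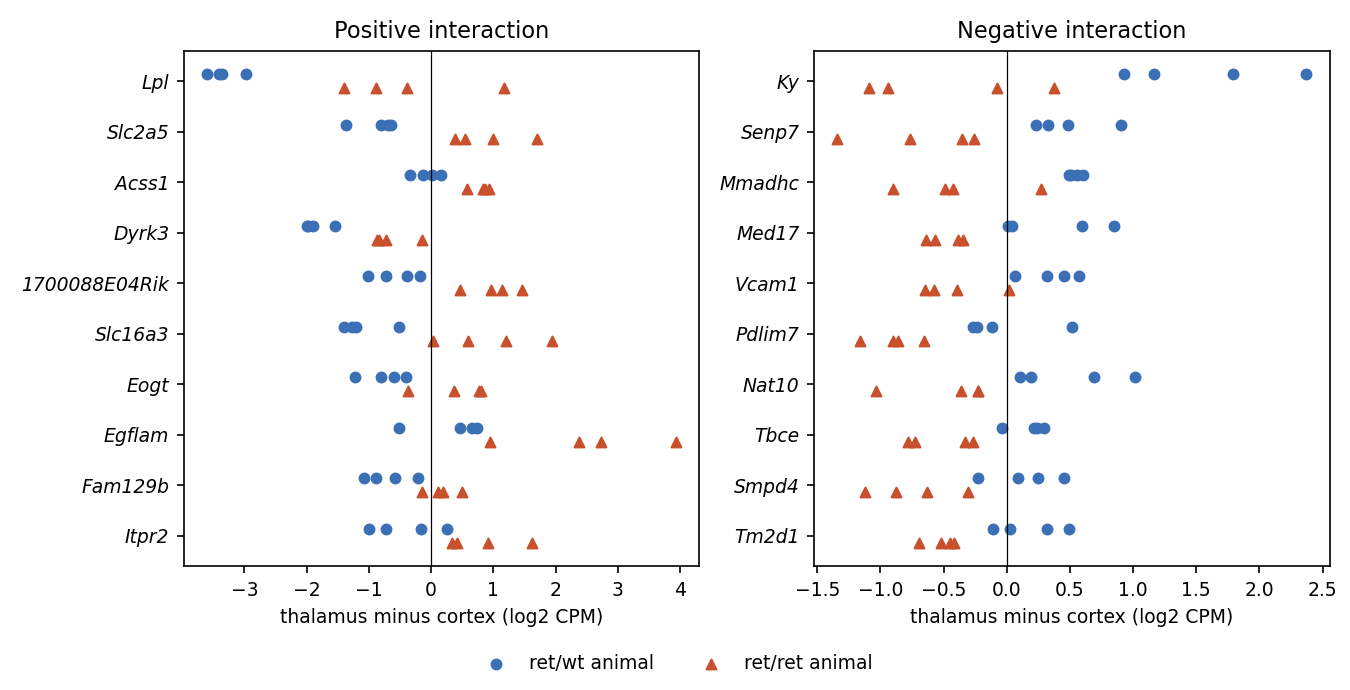
Thalamus minus cortex difference of each animal in log2 CPM (x axis) for the 10 positive and 10 negative genes ranked first, with ret/wt animals as circles and ret/ret animals as triangles. No gene has overlapping genotypes, which is how the genes were chosen, and the widest separation is that of Lpl (means of -3.33 and -0.37).

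Lpl encodes lipoprotein lipase, which frees fatty acids from lipoproteins and is a gene of disease-associated microglia. It lies on chromosome 8 (GRCm38, 68880491 to 68907448, plus strand). In cortex, Lpl stood at 26.5, 35.7, 19.1 and 47.3 CPM in ret/wt animals 1 to 4 and at 12.9, 4.62, 21.9 and 15.9 CPM in ret/ret animals 1 to 4. In thalamus it stood at 2.50, 3.27, 2.33 and 3.81 CPM in ret/wt and at 9.80, 10.6, 8.29 and 8.60 CPM in ret/ret animals. The ret/ret thalamus libraries were all above the ret/wt ones, while in cortex 3 of the 4 ret/ret libraries were below every ret/wt library. The thalamus minus cortex difference lay between -3.60 and -2.98 log2 units in the ret/wt animals and between -1.39 and 1.18 in the ret/ret animals. The lowest cortex value (4.62 CPM) and the only positive difference (1.18) were those of ret/ret animal 2, whose cortex library held the cerebellum genes. The interaction was 2.50 without ret/ret animal 2 and 2.98 with all animals (SE 0.515, edgeR quasi-likelihood unadjusted p = 0.000192). Its adjusted p was 1 with edgeR and ranged from 0.000239 with DESeq2 to 1 over the alternatives. In these bulk samples, a change in the number of cells of a type and a change in RNA per cell cannot be told apart. The cell types that expressed Lpl were not measured either. Lpl was at its highest in ret/wt cortex, where Cst7 had at most 6 counts, so its interaction cannot be assigned to microglia from these data.

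Slc2a5 and Slc16a3 are sugar and lactate carriers. Slc2a5, the fructose transporter GLUT5 and a microglial gene, stood at 5.26, 4.46, 5.10 and 5.16 CPM in ret/wt cortex and at 3.32, 2.72, 1.91 and 2.91 CPM in ret/wt thalamus. In ret/ret animals it stood at 7.19, 1.74, 3.40 and 3.97 CPM in cortex and at 10.6, 5.90, 6.89 and 5.23 CPM in thalamus. Thalamus was the lower region in all 4 ret/wt animals and the higher one in all 4 ret/ret animals (interaction 1.82, SE 0.42). Slc16a3, the lactate exporter MCT4, stood at 3.14, 3.36, 2.20 and 1.25 CPM in ret/wt cortex and at 1.12, 1.33, 0.897 and 0.840 CPM in ret/wt thalamus. The ret/ret values were 2.18, 0.83, 2.26 and 4.69 CPM in cortex and 8.64, 2.06, 2.33 and 7.14 CPM in thalamus. Thalamus was again lower in every ret/wt animal and higher in every ret/ret animal, by as little as 0.04 log2 units in ret/ret animal 3, and the interaction was 2.15 (SE 0.544).

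Egflam encodes pikachurin, an extracellular matrix protein that binds dystroglycan. It stood at 8.01, 5.41, 5.41 and 5.48 CPM in ret/wt cortex and at 3.41, 1.66, 0.657 and 0.847 CPM in ret/ret cortex. The thalamus values were 11.1, 8.60, 3.77 and 9.24 CPM in ret/wt and 6.69, 11.6, 11.5 and 4.83 CPM in ret/ret animals. Its groups were thus apart in cortex, where all ret/ret libraries were the lower ones, and overlapped in thalamus (interaction 2.24, SE 0.643). The other 6 positive genes had interactions of 0.86 to 1.63. They were Acss1, a mitochondrial acetyl-CoA synthetase (0.88), the kinase gene Dyrk3 (1.22), 1700088E04Rik (1.63), Eogt, which adds N-acetylglucosamine to extracellular EGF domains (1.16), Fam129b (0.86) and Itpr2, an inositol trisphosphate receptor that releases calcium from the endoplasmic reticulum (1.23). Acss1 varied little within each genotype, with thalamus minus cortex differences of -0.34 to 0.15 in ret/wt animals and 0.58 to 0.93 in ret/ret animals.

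Among the negative genes, Ky, a gene for a transglutaminase-like protein of the muscle sarcomere, had the largest interaction (-2.04, SE 0.497). It stood at 2.51, 4.46, 1.54 and 0.814 CPM in ret/wt cortex and at 14.8, 5.28, 5.33 and 7.81 CPM in ret/ret cortex. In thalamus Ky stood at 8.94, 8.60, 3.59 and 4.65 CPM in ret/wt and at 6.92, 5.01, 6.93 and 4.03 CPM in ret/ret animals. The genotypes did not overlap in cortex, where ret/ret was the higher, and overlapped in thalamus.

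Vcam1, an adhesion molecule of activated endothelium that binds leukocytes, stood at 34.5, 39.8, 51.4 and 38.4 CPM in ret/wt cortex and at 50.1, 50.2, 47.1 and 48.6 CPM in ret/ret cortex. In thalamus it stood at 42.9, 59.2, 70.5 and 40.2 CPM in ret/wt and at 33.5, 50.8, 30.0 and 37.0 CPM in ret/ret animals. Each ret/wt animal had more Vcam1 in thalamus than in cortex and 3 of 4 ret/ret animals had less, while ret/ret animal 2 had a difference of 0.02 (interaction -0.75, SE 0.229). Senp7, a protease that removes SUMO chains, had differences of 0.24 to 0.90 in ret/wt and of -1.34 to -0.26 in ret/ret animals (interaction -1.17, SE 0.291). The remaining 7 had interactions between -0.97 and -0.70. They were Mmadhc, of intracellular vitamin B12 handling (-0.93), the Mediator subunit gene Med17 (-0.86), Pdlim7, an actin-associated LIM protein (-0.87), the RNA acetyltransferase gene Nat10 (-0.97), the tubulin-folding cofactor gene Tbce (-0.70), the sphingomyelinase gene Smpd4 (-0.88) and Tm2d1 (-0.70).

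**Figure D3:**
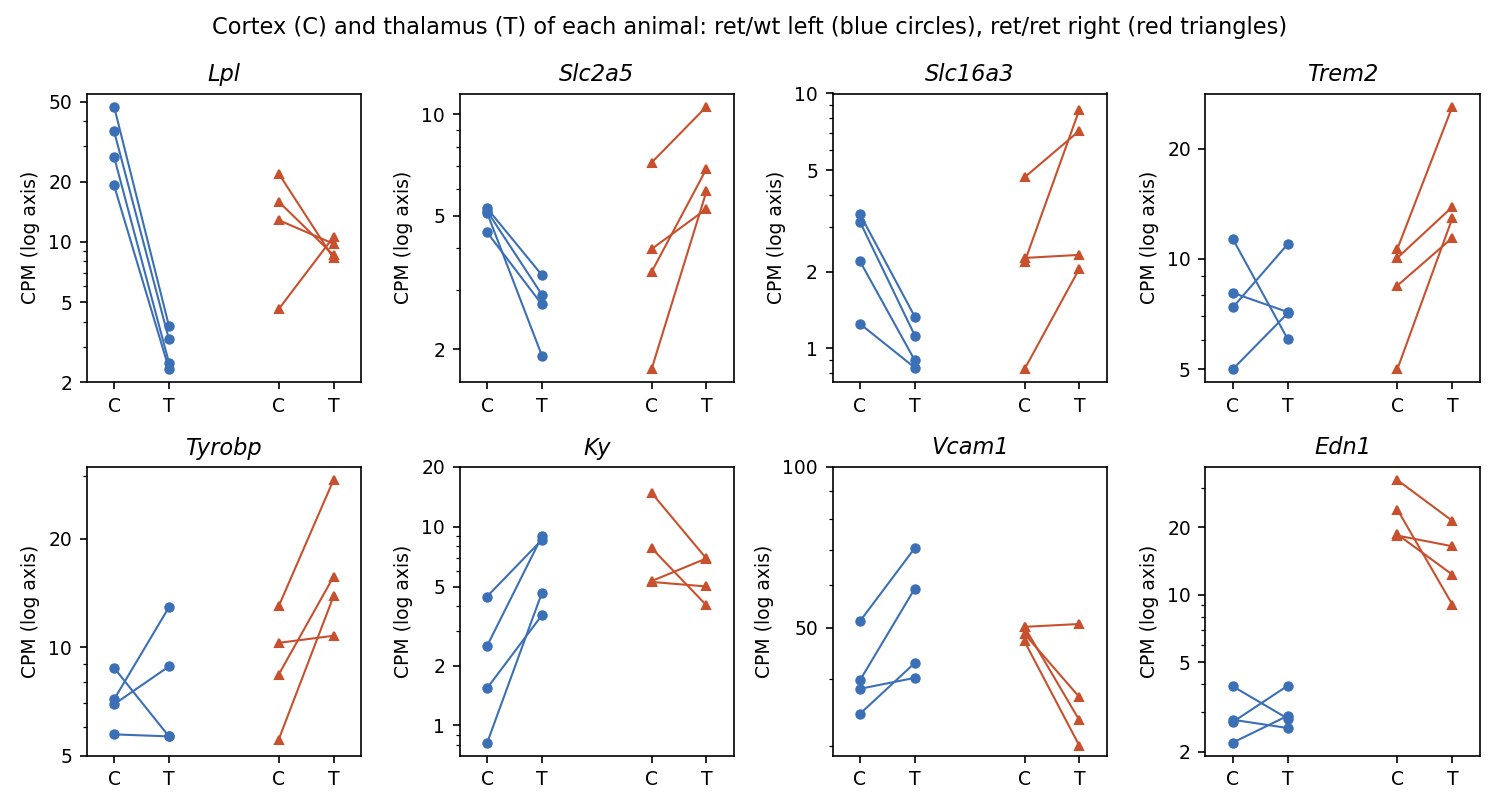
CPM in each library for genes of the interaction, with cortex and thalamus of each animal joined by a line, ret/wt and ret/ret shown separately, and CPM on a log axis. The lines of Lpl slope down steeply in all 4 ret/wt animals (from 19.1 to 47.3 CPM in cortex to 2.33 to 3.81 CPM in thalamus). In ret/ret animals they slope up only in animal 2, whose cortex library held the cerebellum genes.

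The microglial receptor and its adaptor did not pass the test. Trem2 stood at 8.08, 11.3, 5.01 and 7.38 CPM in the cortex and at 7.17, 6.05, 7.12 and 11 CPM in the thalamus of ret/wt animals. In ret/ret animals Trem2 stood at 10.7, 5.02, 10.1 and 8.47 CPM in cortex and at 26, 12.9, 13.9 and 11.4 CPM in thalamus. All ret/ret thalamus libraries were above all ret/wt thalamus libraries, the lowest of them by a small margin (11.4 against 11 CPM), and the cortex libraries overlapped. The animal differences were -0.17, -0.89, 0.50 and 0.57 in ret/wt and 1.28, 1.35, 0.46 and 0.43 in ret/ret animals, and these overlapped. The interaction of Trem2 was 0.88 (95% interval -0.05 to 1.82, edgeR quasi-likelihood unadjusted p = 0.0619, two-sided exact permutation p = 0.171). With 4 animals against 4, the smallest exact p is 0.0286.

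Tyrobp stood at 5.73, 8.77, 6.95 and 7.17 CPM in ret/wt cortex, at 5.66, 5.66, 8.85 and 12.9 CPM in ret/wt thalamus, at 13, 5.54, 8.40 and 10.3 CPM in ret/ret cortex and at 29.2, 13.9, 15.7 and 10.8 CPM in ret/ret thalamus. Its genotypes overlapped in both regions. The interaction of Tyrobp was 0.73 (95% interval -0.19 to 1.64, edgeR quasi-likelihood unadjusted p = 0.107, two-sided exact permutation p = 0.114). Both genes stood lowest among ret/ret cortex libraries in animal 2, the library with cerebellum genes, and without that animal the interaction was 0.73 for Trem2 and 0.59 for Tyrobp. Without ret/wt animal 2 it was 0.59 and 0.48.

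In the list of 25 disease-associated microglia genes, 21 had a positive and 4 a negative interaction, with a median of 0.43 against -0.02 over all genes tested. Lpl and Cst7 had an unadjusted p under 0.05. Of all 15286 genes tested, 1.59% did, which is the share to set beside the members named at that threshold in every list below. Cst7 encodes cystatin F, an inhibitor of lysosomal cysteine proteases, and was close to the limit of detection outside ret/ret thalamus. Its counts were 1, 2, 6 and 4 in ret/wt cortex, 0, 0, 2 and 0 in ret/wt thalamus, 7, 1, 3 and 2 in ret/ret cortex and 258, 142, 65 and 14 in ret/ret thalamus. The ret/ret thalamus counts were the highest 4 of the 16 and spread from 0.704 CPM in animal 4 to 11.4 CPM in animal 1.

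The thalamus minus cortex difference in the mean log2 level of the list was 0.21, -0.16, 0.25 and 0.46 in ret/wt animals and 1.08, 1.0, 0.96 and 0.96 in ret/ret animals (0.19 ± 0.26 and 1.0 ± 0.06, SD, n = 4 each). The genotypes did not overlap. Without Lpl and Cst7 the means were 0.40 ± 0.29 and 0.94 ± 0.10, with 0.72 as the highest ret/wt and 0.80 as the lowest ret/ret value. Without Itgax, which had 3 counts or fewer in every ret/wt library, they were 0.20 ± 0.30 and 0.96 ± 0.09. No score was made without Lpl, Cst7 and Itgax together, and a separation of the genotypes without all of them is not claimed. The median interaction of the list was 0.15 without ret/wt animal 2 and 0.72 without ret/wt animal 4. The lists were written with earlier results of these data known, so no test was made over them.

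Homeostatic microglia genes shared this sign. All 12 had a positive interaction, none with an unadjusted p under 0.05 in the edgeR quasi-likelihood test (0 with an adjusted one), and the median was 0.50. The members of smallest p were P2ry12, Csf1r and Gpr34. The purinergic receptor gene P2ry12 had an interaction of 0.66 (95% interval -0.21 to 1.53) and the CSF1 receptor gene Csf1r one of 0.46 (-0.15 to 1.07). Gpr34, a lysophosphatidylserine receptor gene, had one of 0.55 (-0.07 to 1.18). The largest interaction of the list was that of Fcrls (0.83). Csf1r stood at 101, 117, 67.4 and 87.6 CPM in ret/wt cortex, 67.2, 72.5, 80.5 and 76.4 CPM in ret/wt thalamus, 132, 61.4, 108 and 103 CPM in ret/ret cortex and 145, 93.1, 99.6 and 104 CPM in ret/ret thalamus. All 4 ret/ret thalamus libraries were above all ret/wt ones, and cortex overlapped. The summed level of the 12 genes ranged from 340.3 to 494 CPM in ret/wt cortex, 339 to 389 CPM in ret/wt thalamus, 297 to 619 CPM in ret/ret cortex and 496 to 633 CPM in ret/ret thalamus. The thalamus minus cortex score was 0.91 in ret/ret animal 2 and -0.07 to -0.04 in the other 3, and without that animal the median interaction was 0.31. In thalamus the fitted genotype difference was positive for the median homeostatic gene (0.60) as for Lpl (1.65) and Trem2 (1.04), whereas in cortex it was 0.13 for the median homeostatic gene and -1.22 for Lpl. The part of these microglial levels in the interaction of single genes was not tested.

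The phagocytic and complement genes were mixed. Of 18 lysosome genes, 10 had a positive interaction, and the median was 0.06, -0.03 without ret/wt animal 2 and 0.20 without ret/wt animal 4. Man2b1, an alpha-mannosidase, had an unadjusted p under 0.05 (0.51, SE 0.195). Of 12 complement genes, 7 were positive with a median of 0.07, which ranged from 0.0043 without ret/ret animal 3 to 0.41 without ret/wt animal 4. Among them, the microglial opsonin gene C1qc had an interaction of 0.60 (SE 0.266), C1qa of 0.60 (SE 0.325), and Itgb2, the beta subunit of the complement receptor, of 1.75 (SE 0.692). C1qc stood at 29.2, 30.1, 18.1 and 27.1 CPM in ret/wt cortex, 24.1, 25.4, 24.2 and 38.9 CPM in ret/wt thalamus, 54.1, 22.3, 28.0 and 32.6 CPM in ret/ret cortex and 95.1, 42.0, 47.9 and 41.0 CPM in ret/ret thalamus. Here too the ret/ret thalamus libraries were the highest 4 thalamus libraries, while the cortex groups overlapped.

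**Figure D4:**
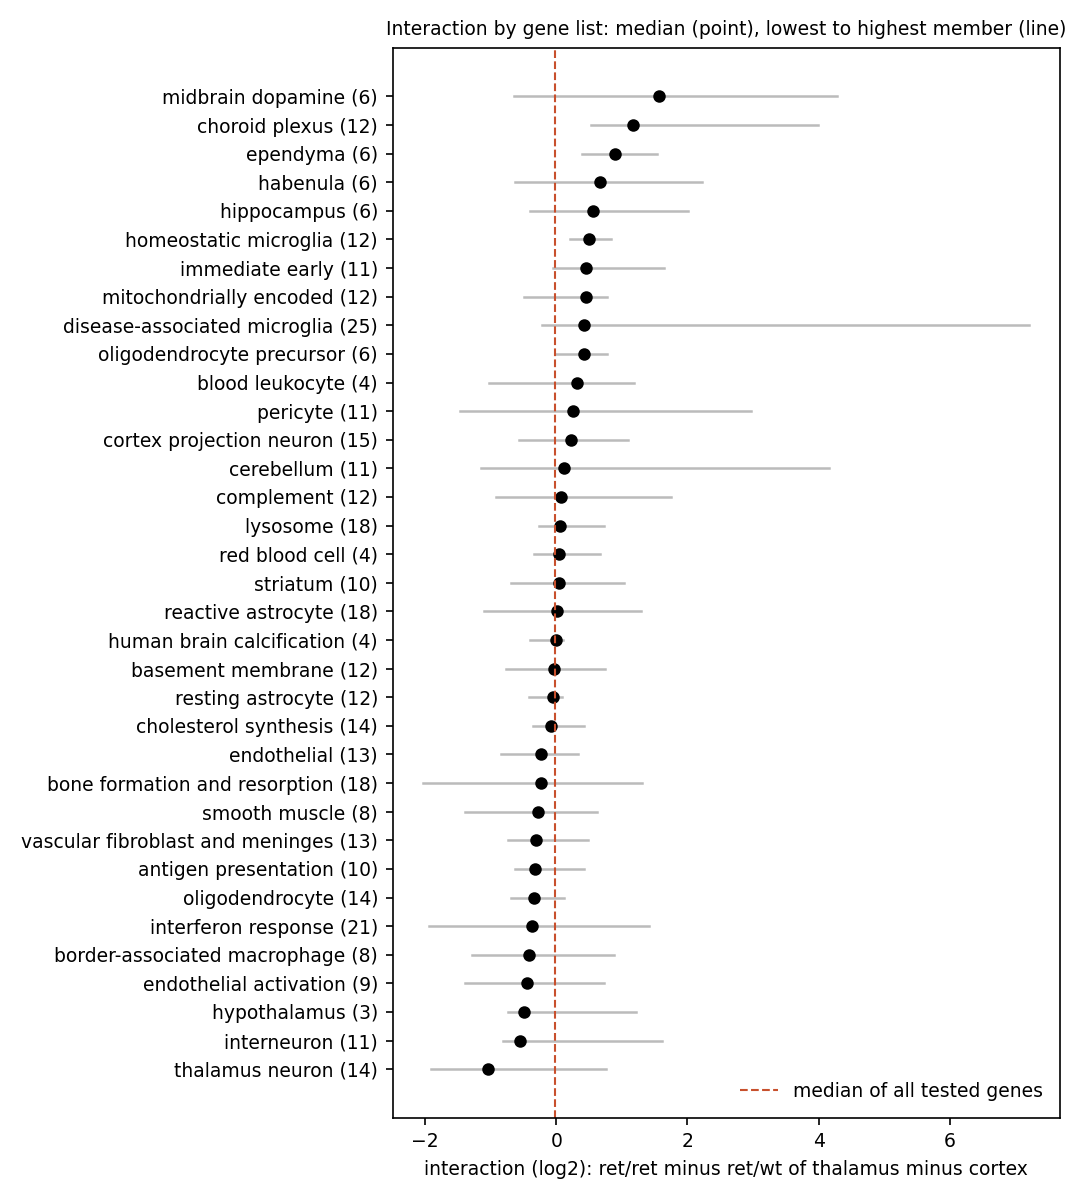
Median interaction of each of 35 gene lists (points, log2 units on the x axis, number of tested members in parentheses), with a line from the lowest to the highest member and a dashed line at the median of all tested genes. The whole homeostatic microglia line lies above 0 (0.20 to 0.83), and the disease-associated line ends at 7.21 with Cst7, whose fitted value depends on counts near 0 in ret/wt animals.

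Edn1, Fmo2 and Rgs5 separated the genotypes in both regions, and their interaction did not pass the test. They were named because an earlier analysis of these data called them in cortex, so their separation there is not independent of that choice. Edn1, the endothelial vasoconstrictor endothelin, stood at 2.20, 2.78, 3.91 and 2.71 CPM in ret/wt cortex, 2.89, 2.55, 2.81 and 3.94 CPM in ret/wt thalamus, 32.5, 18.4, 24.0 and 18.6 CPM in ret/ret cortex and 21.4, 16.5, 9.07 and 12.3 CPM in ret/ret thalamus. It was above every ret/wt library in all 8 ret/ret libraries. Thalamus was lower than cortex in all 4 ret/ret animals and in 2 of 4 ret/wt animals (interaction -0.77, 95% interval -1.59 to 0.05, edgeR quasi-likelihood unadjusted p = 0.0641, two-sided exact permutation p = 0.0571). Fmo2, a flavin monooxygenase, stood at 1.90 to 3.37 CPM in ret/wt cortex, 1.94 to 5.81 CPM in ret/wt thalamus, 10.7 to 19.5 CPM in ret/ret cortex and 6.01 to 21.1 CPM in ret/ret thalamus. Its interaction was -0.71 (95% interval -1.52 to 0.11, edgeR quasi-likelihood unadjusted p = 0.0814, two-sided exact permutation p = 0.0571).

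Rgs5, a regulator of G-protein signalling and a pericyte marker, stood at 63.5, 63.9, 48.8 and 62.0 CPM in ret/wt cortex and 54.1, 68.6, 46.6 and 43.6 CPM in ret/wt thalamus. In ret/ret animals it stood at 21.2, 13.8, 15.5 and 22.1 CPM in cortex and 17.3, 19.2, 18.2 and 22.6 CPM in thalamus. Every ret/ret library was below every ret/wt library, and the fitted genotype difference was -1.71 in cortex and -1.46 in thalamus. The interaction was 0.29 (95% interval -0.26 to 0.83, edgeR quasi-likelihood unadjusted p = 0.264, two-sided exact permutation p = 0.229). Interactions up to 0.83 log2 units lay within this interval, which is for a single gene without adjustment. For Trem2, Tyrobp, Edn1, Fmo2 and Rgs5, which were named whatever their interaction, no exact p was under 0.05. Over all 15286 genes, 266 had the smallest exact p of 0.0286.

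Of 11 pericyte genes, 7 had a positive interaction, with a median of 0.25 that was -0.32 without ret/ret animal 1, 0.81 without ret/ret animal 2, 0.00 without ret/ret animal 4 and 0.15 without ret/wt animal 4. Higd1b, a hypoxia-domain gene used as a pericyte marker, had an unadjusted p under 0.05 (2.97, SE 1.08). It was barely detected in ret/ret animals, with at most 0.130 CPM in cortex and 0.355 to 0.671 CPM in thalamus, against 0.604 to 1.62 CPM in ret/wt libraries of both regions. The potassium channel subunit gene Abcc9 stood at 4.07 to 5.89 CPM in ret/wt cortex, 3.42 to 13.4 CPM in ret/wt thalamus, 0.508 to 0.986 CPM in ret/ret cortex and 1.25 to 3.52 CPM in ret/ret thalamus (interaction 0.96, 95% interval -0.31 to 2.23). Cox4i2, among the 4 negative members, went the other way with a smaller p than Abcc9 (interaction -1.47, 95% interval -3.11 to 0.17). Its levels were low, at 0.503 to 3.42 CPM over all libraries.

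Endothelial activation genes had the opposite sign to the microglial ones. Of 9 tested, 8 had a negative interaction, the median was -0.44, and Vcam1 alone had an unadjusted p under 0.05. The hormone gene Apln had an interaction of -0.66 (95% interval -1.59 to 0.27). The median was -0.08 without ret/wt animal 4 and -0.22 without ret/ret animal 2. Among 13 endothelial genes, 9 were negative with a median of -0.23, 0.01 without ret/wt animal 4 and -0.05 without ret/ret animal 3, and the organic anion transporter gene Slco1a4 had an unadjusted p under 0.05 (-0.84, SE 0.351). Slco1a4 stood at 26.2 to 38.6 CPM in ret/wt cortex, 29.6 to 61.3 CPM in ret/wt thalamus, 47.0 to 128 CPM in ret/ret cortex and 35.7 to 116 CPM in ret/ret thalamus. The VEGF receptor gene Kdr (-0.38, 95% interval -0.98 to 0.23) was higher in ret/ret than in ret/wt cortex in every library.

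Interferon response genes were negative in 13 of 21, with a median of -0.37. The antiviral gene Rsad2 had an unadjusted p under 0.05 (-1.94, SE 0.824) at low levels, 0.308 to 6.43 CPM over all 16 libraries. The list's median was -0.10 without ret/wt animal 4, -0.16 without ret/ret animal 1, -0.17 without ret/ret animal 2 and -0.57 without ret/ret animal 4. Of 10 antigen presentation genes, 6 were negative, and the median of -0.32 was 0.27 without ret/wt animal 4, -0.03 without ret/ret animal 2 and -0.52 without ret/wt animal 2.

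Reactive astrocyte genes had a median interaction of 0.02 (-0.24 to 0.39 over the alternatives), with 10 of 18 positive and none with an unadjusted p under 0.05 in the edgeR quasi-likelihood test (0 with an adjusted one). Serpina3n, a protease inhibitor gene of reactive astrocytes, stood at 115, 45.6, 41.9 and 27.5 CPM in the thalamus of ret/ret animals 1 to 4, against 18.1 to 23.4 CPM in ret/wt thalamus. Its cortex values were 4.88 to 31.8 CPM in ret/wt and 5.10 to 95 CPM in ret/ret animals, with animal 1 as the highest (interaction 1.30, 95% interval -0.27 to 2.87). Oligodendrocyte genes were negative in 12 of 14 with a median of -0.33, led by Aspa (-0.69, 95% interval -1.57 to 0.20), an enzyme that splits N-acetylaspartate. That median was -0.09 without ret/wt animal 4, -0.16 without ret/ret animal 2 and -0.20 without ret/ret animal 3.

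Genes of bone formation and resorption had a median interaction of -0.24 over 18 tested, 13 of them negative and none with an unadjusted p under 0.05 in the edgeR quasi-likelihood test (0 with an adjusted one). The median was 0.07 without ret/ret animal 2, -0.09 without ret/wt animal 4 and -0.52 without ret/wt animal 3, and -0.49 and -0.38 without ret/ret animals 1 and 4. Spp1 encodes osteopontin, a mineral-binding protein of bone and of activated microglia. It stood at 8.71, 12.4, 11.3 and 8.25 CPM in ret/wt cortex and 45.8, 43.4, 39.3 and 50.7 CPM in ret/wt thalamus. In ret/ret animals Spp1 stood at 8.42, 10.2, 3.65 and 7.88 CPM in cortex and 70.7, 43.5, 34.6 and 403 CPM in thalamus. The thalamus value of ret/ret animal 4 was far above the others, and the other 3 lay below, within and above the ret/wt thalamus range (interaction 1.31, 95% interval -0.16 to 2.78, and 0.65 without animal 4). Dmp1, a matrix protein gene of osteocytes, stood at 5.76 to 9.42 CPM in ret/wt cortex, 3.29 to 9.93 CPM in ret/wt thalamus, 5.55 to 8.28 CPM in ret/ret cortex and 1.16 to 3.98 CPM in ret/ret thalamus (-1.01, 95% interval -2.08 to 0.06). Enpp1, which makes the mineralization inhibitor pyrophosphate, had an interaction of -0.72 (95% interval -1.79 to 0.34).

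The genes whose loss of function causes primary brain calcification in people showed no common direction. The 4 tested were the phosphate importer gene Slc20a2, the junction gene Jam2, the pericyte receptor gene Pdgfrb and the phosphate exporter gene Xpr1. Their interactions lay between -0.40 and 0.11, 2 positive and 2 negative, and their median of 0.00 ranged from -0.16 to 0.12 over the alternatives.

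**Figure D5:**
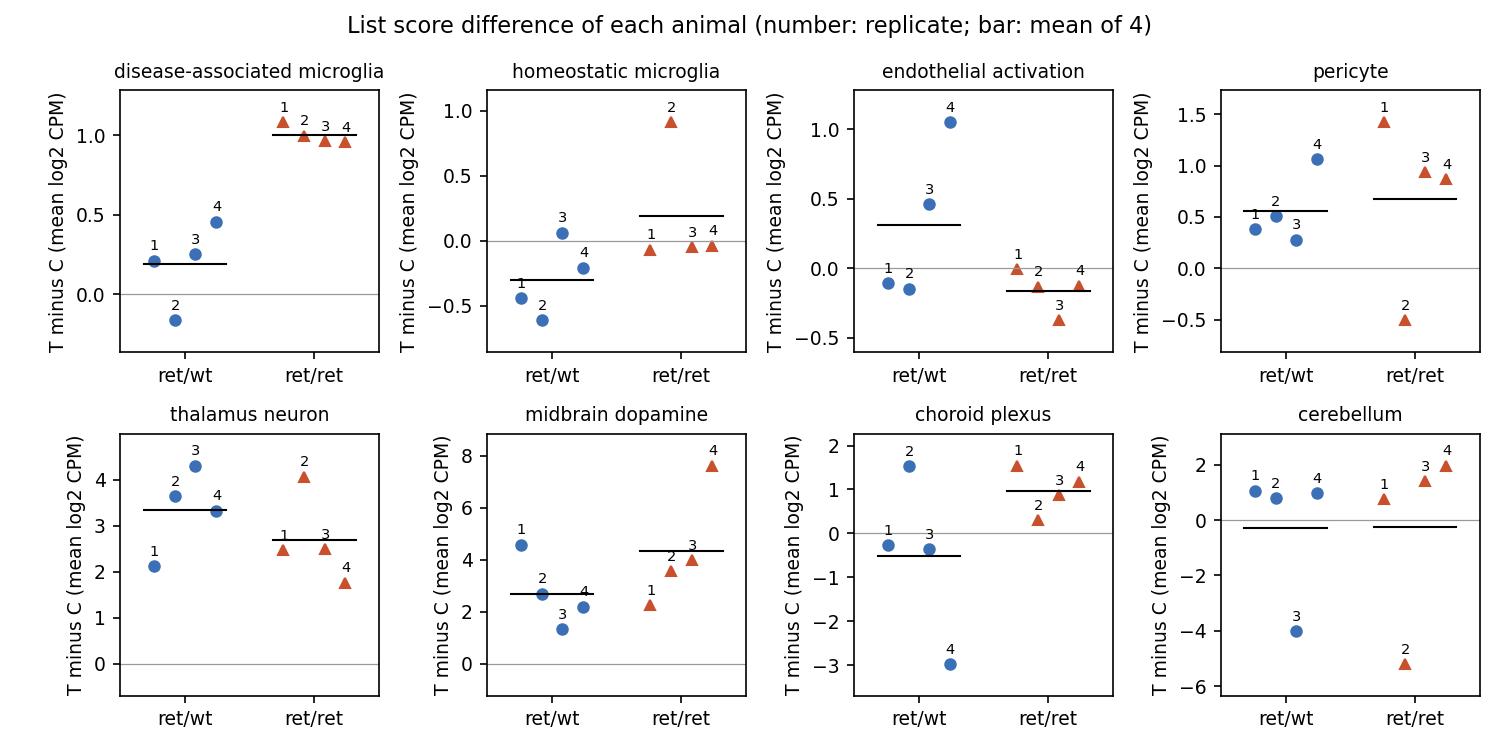
Thalamus minus cortex difference in the mean log2 CPM of 8 gene lists for each animal (points numbered by animal; bar, mean of 4). Disease-associated microglia genes, a list written with earlier results of these data known, lie at most at 0.46 in ret/wt and at least at 0.96 in ret/ret. Without Lpl and Cst7, but with the low-count gene Itgax, these values are 0.72 and 0.80. Choroid plexus, cerebellum and midbrain dopamine genes vary mainly through single animals.

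The lists of midbrain dopamine, choroid plexus and thalamus neuron genes had the 3 medians of largest size, and these depended on single animals. Of 14 thalamus neuron genes, 11 had a negative interaction and the median was -1.04. Their summed level was 1166 to 4774 CPM in ret/wt thalamus and 757 to 4864 CPM in ret/ret thalamus, with the lowest value in ret/ret animal 4, and the median was -0.50 without that animal, -0.63 without ret/wt animal 3 and -1.58 without ret/ret animal 2. Shox2, a transcription factor gene of thalamic neurons, stood at 61.1, 42.4, 108 and 42.7 CPM in ret/wt thalamus and 27.7, 81.8, 47.2 and 5.43 CPM in ret/ret thalamus (-1.26, 95% interval -2.96 to 0.44). Of 6 midbrain dopamine genes, 5 were positive and the median was 1.57. Slc18a2, the vesicular monoamine transporter gene, had an unadjusted p under 0.05 (4.28, SE 1.53) and stood at 9.33, 3.38, 1.32 and 1.81 CPM in ret/wt thalamus and at 2.39, 19.8, 3.93 and 140 CPM in ret/ret thalamus. Without ret/ret animal 4 the median of the dopamine list was 0.45, without ret/wt animal 3 it was 0.68 and without ret/wt animal 1 it was 2.38.

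All 12 choroid plexus genes had a positive interaction, with a median of 1.17. Folr1, the folate receptor gene of the plexus, and the water channel gene Aqp1 had an unadjusted p under 0.05 (3.98, SE 1.31, and 2.61, SE 1.14). Aqp1 stood at 8.25 CPM in the cortex of ret/wt animal 4 and at 0.0485 to 1.29 CPM in the other 15 libraries. The summed level of the list was 1765 CPM in that library and 206 to 436 CPM in the other cortex libraries. Without ret/wt animal 4 the median was 0.23, without ret/wt animal 2 it was 2.21 and without ret/ret animal 2 it was 2.11. Ependymal genes were positive in all 6, with a median of 0.90 that was 0.25 without ret/ret animal 1, 0.47 without ret/ret animal 4 and 1.62 without ret/ret animal 2. The 15 cortical projection neuron genes had a median of 0.22, which was 0.08 without ret/ret animal 2, 0.09 without ret/wt animal 1, 0.47 without ret/wt animal 2, 0.39 without ret/wt animal 4 and 0.68 without ret/ret animal 3. Fezf2, a transcription factor gene of deep cortical layers, stood at 26.8 to 29.4 CPM in ret/wt cortex and at 5.74, 7.55, 30.7 and 48.2 CPM in ret/ret cortex. Neurod6, a transcription factor gene of cortical excitatory neurons, stood at 39.5 to 84.9 CPM in ret/wt cortex and at 19.5, 26.4, 83.0 and 110 CPM in ret/ret cortex. Both were low in the cortex of ret/ret animals 1 and 2 and high in that of animals 3 and 4. The part of these tissue differences in the interaction of other genes was not tested.

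Over all 35 lists, 381 distinct genes were tested, of which 16 (4.20%, against 1.59% of all genes) had an unadjusted p under 0.05, 13 positive and 3 negative, and 10 (2.62%, against 1.75%) did not overlap between genotypes. The lists were chosen with earlier results known, so these shares are a description. Of the list medians, 19 were positive and 16 negative.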

How the data were processed

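RNA from 16 brain samples was poly(A)-selected and made into stranded libraries, per the labels' protocols. The authors deposited 1 table of estimated counts for 21804 genes, in which 100% of the values above 0 were not whole, to 4 significant digits. Per the submitters' processing notes, kallisto 0.44.0 and the GRCm38.p6 build were used. The annotation and the step from transcripts to genes are not given in the sources used here. Reads shared by near-identical genes are split by such estimates, which could move the values of gene families.

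Here the estimated counts were rounded, genes with too few reads in the 4 groups were dropped with edgeR's filterByExpr (minimum count 10, minimum total 15), and 15286 genes were kept. Symbols were matched for 21581 genes (99.0%), and gene positions come from the GENCODE annotation of GRCm38. After TMM scaling, edgeR 4.0.16 (R 4.3.3) fitted a term per animal, a region term and the region by genotype term to all 16 libraries, and the last was tested by quasi-likelihood with Benjamini-Hochberg adjustment at 0.05. Both libraries of an animal carry the same animal label, which is where the pairing comes from. The residual correlation of the 2 libraries of an animal ranged from -0.03 to 0.25 (mean 0.0771, against -0.03 for libraries of different animals of a genotype). Single genes were also tested by exact permutation over the 70 regroupings of 8 animal differences in log2 CPM (prior count 2). The labels name separate animals as replicates.

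Named genes are the 10 of smallest p in each direction that averaged 1 or more in log2 CPM and did not overlap between genotypes, then Trem2, Tyrobp, Edn1, Fmo2 and Rgs5, members of smallest p in each list, and region markers. The members, lists, named genes and tests were chosen with earlier results of these data known. Alternatives used limma 3.58.1, DESeq2 1.42.0, other scaling and filters, and left out each animal. Scripts were tested on simulated data. Of 421 distinct genes in the lists, 381 were tested, 9 were not analysed here and the others did not pass the filter on low counts. In addition, some single-gene results are not reported here.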

Additional observations from a re-analysis of the deposited data

Results flagged for a closer look

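In each genotype, the 4 thalamus minus cortex differences of each named gene and list were checked for a single animal whose gap to the nearest other animal exceeded Dixon's 95% critical share of the whole range. This held in 14 of 212 groups of 4, and chance marks about 1 in 20.

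Animal 4 of the ret/wt group and animal 2 of the ret/ret group stood apart 5 times each. For ret/wt animal 4, the difference was 1.98 for H2-K1, an MHC class I gene (0.43 to 0.51 in the other 3), and 1.79 for Cp, the ceruloplasmin gene (-0.05 to 0.25). The antigen presentation score was 2.06 in this animal (0.02 to 0.23 in the others), the border-associated macrophage score 1.92 (-0.30 to 0.06) and the blood leukocyte score 1.68 (-1.54 to -1.44). Its cortex library is the one with high choroid plexus genes.

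Animal 2 of the ret/ret group did so for H2-D1, another MHC class I gene (-1.56, against 0.59 to 0.94), and for the thalamic neuron gene Synpo2 (4.74, against 0.33 to 0.94). Its homeostatic microglia score was 0.91 (-0.07 to -0.04 in the others) and its complement score 0.55 (0.89 to 0.94). The cerebellum score was -5.20 in this animal (0.76 to 1.97 in the other ret/ret animals) and -4.01 in ret/wt animal 3 (0.80 to 1.06 in the other ret/wt animals), the animals with high cerebellum genes in cortex.

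The other 3 values stood alone. The striatum score was 0.52 in ret/wt animal 1 (-0.26 to -0.14), the cholesterol synthesis score was -0.75 in ret/ret animal 1 (0.21 to 0.38), and the activity gene Npas4 had -2.94 in ret/ret animal 3 (-1.86 to -1.72).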

How the results depend on the processing

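The count of genes with an adjusted p under 0.05 was 0 in 21 of 22 alternatives, which included 3 limma fits, 3 other scalings, 2 other filters, robust estimation, a threshold of 0.1, a region by Y-linked reads term and fits without 1 or 2 animals. With DESeq2 it was 2 (Lpl and Cst7), and the cause was not tested. It stayed between 0 and 0 when each animal was left out in turn. Without the animal as a block the count was also 0, so the pairing changed no call. The count at an unadjusted p was 245 without the block against 243 with it, and 16 of the 20 genes ranked first stayed under 0.05. The unadjusted count ranged from 186 with the stricter filter to 477 without ret/wt animal 4. The share of these genes with a positive interaction was 60.1%, and 48.4% without ret/wt animal 4. The exact permutation p of Trem2 was 0.114 to 0.286 when each animal was left out in turn. None of 71 genes followed singly changed the sign of its interaction in any of these alternatives that gave it a value. The 20 ranked first were chosen for genotypes that did not overlap, and most others for the smallest p in their list. That choice made a change of sign unlikely from the start. Of the 35 list medians, 19 changed sign in at least 1 alternative, and 16 kept their sign. The median of all genes stayed between -0.06 and -0.0003 in every alternative. Leaving Lpl and Cst7 out of the disease-associated score narrowed the difference between genotypes from 0.81 to 0.54, an alternative chosen after the data were seen. Depth limits genes near 0.110 to 0.235 CPM, such as Cst7 in ret/wt libraries.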

Other observations

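Genes induced by neuronal activity had a median genotype difference of -0.78 in cortex and 0.02 in thalamus, with no test over the list. Their summed level in cortex overlapped between genotypes, at 416 to 2014 CPM in ret/wt and 313 to 1034 CPM in ret/ret animals, with ret/wt animal 4 below 3 of the 4 ret/ret animals. Of 11 immediate early genes, 10 had a positive interaction, with a median of 0.46 (0.19 without ret/ret animal 1, 0.29 without ret/wt animal 2 and 0.71 without ret/wt animal 4). Npas4, a transcription factor gene induced by calcium entry, stood at 28.1, 43.3, 16.4 and 15.9 CPM in ret/wt cortex and at 10.3, 10.6, 20.7 and 6.84 CPM in ret/ret cortex. In thalamus Npas4 stood at 2.03 to 3.66 CPM in ret/wt and 1.81 to 3.06 CPM in ret/ret animals (interaction 1.13, SE 0.397, edgeR quasi-likelihood unadjusted p = 0.0181, adjusted p = 1). The cortex values overlapped between genotypes through ret/ret animal 3. Fosb stood at 19.0 to 44.6 CPM in ret/wt cortex and 8.35 to 16.9 CPM in ret/ret cortex, without overlap, and its interaction was 0.67 (95% interval -0.25 to 1.59).

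Of 12 mitochondrially encoded genes, 11 had a positive interaction, with a median of 0.45 (0.21 without ret/ret animal 3 and 0.68 without ret/wt animal 2). The mitochondrial share of counts ranged from 3.22% to 8.43% in the cortex libraries of ret/wt animals and from 4.24% to 8.80% in their thalamus libraries. For ret/ret animals the ranges were 4.29% to 7.04% (cortex) and 5.87% to 12.1% (thalamus). Of 11 interneuron genes, 9 had a negative interaction (median -0.55, -0.08 without ret/wt animal 4 and -0.19 without ret/ret animal 2). Lhx6, a transcription factor gene of interneurons born in the medial ganglionic eminence, went the other way. It stood at 18.0 to 27.8 CPM in ret/wt cortex, 7.11 to 21.6 CPM in ret/ret cortex, 0.130 to 0.969 CPM in ret/wt thalamus and 0.358 to 1.37 CPM in ret/ret thalamus (1.61, SE 0.552). Of 6 habenula genes, 5 had a positive interaction (median 0.66, and 0.25 without ret/ret animal 4), and Gpr151, an orphan receptor gene of the habenula, stood at 4.17, 0.805, 0.727 and 1.66 CPM in ret/ret thalamus and at 0.432 to 0.969 CPM in ret/wt thalamus.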
